A study of Homo sapiens with 4 samples.

Results

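The prostaglandin genes described here are 10 genes that make, sense or inactivate prostaglandins: the cyclooxygenases PTGS1 and PTGS2, the prostaglandin E2 (PGE2) synthases PTGES, PTGES2 and PTGES3, the prostacyclin synthase PTGIS, the receptors PTGER2, PTGER4 and PTGFR, and the degrading enzyme HPGD. They were picked by name from the pathway. The set was chosen on a value of the same comparison, the lower PTGER4 level in knockdown cells against a presumed trend of inflammatory genes. The inflammatory mediators listed further below had no common direction: of 14 tested, 7 had a negative and 7 a positive log2 fold change. Differences of the 10 genes between the groups are therefore given as a description, without p-values. All 10 were found among the 19626 genes of the deposited tables, and 8 of them passed the filter that left 12157 genes to be tested.

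RNA-seq was performed on ES-2, a human line established from an ovarian clear cell carcinoma that carries an endogenous YAP1-MAML2 (YM) fusion. One group received pLKO.1 lentiviruses with a control shRNA that has no target (shCtl, n = 2 biological replicates), and the other received viruses with shM2-3, a single shRNA against a sequence that MAML2 and the fusion share (n = 2). In both groups virus was applied for 8 h on consecutive days, and the labels place RNA isolation at 96 h after the first infection, whereas the study's methods state a shorter time. A shRNA of this kind is directed at both transcripts, so that an effect of the fusion and one of MAML2 cannot be told apart here.

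Prostaglandins are lipid messengers made from arachidonic acid. Cyclooxygenases convert the released acid to PGH2, terminal synthases turn PGH2 into PGE2, prostacyclin or other prostanoids, and the products act on G protein-coupled receptors of the same or neighboring cells before reductases and dehydrogenases inactivate them. PTGS1 is usually the constant isoform, PTGS2 and PTGES are the inducible pair known from inflammation and many carcinomas, and PGE2 acting through its EP2 and EP4 receptors is known for raising cyclic AMP.

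The 5 prostaglandin genes that passed the limits for a change are spread over the genome, and the sequence just before their transcription starts is shown to give the regulatory setting of each. Each line holds the 250 bases before a RefSeq start (GRCh38.p14, the release of hg38), read 5′ to 3′ in the direction of the gene. Capitals mark matches on either strand to 5 motifs: the TEAD core GGAATG, the AP-1 motif TGANTCA, the cyclic AMP response half-site TGACG, the TATA box TATAAA and the NF-kB consensus. Of the 10 prostaglandin genes, 9 were matched in the RefSeq table, and both listed starts of PTGS1 are printed. The RefSeq start of PTGFR, at 78490974, lies inside the gene span given below, which begins at 78303884. Its window is therefore not the sequence before the first base of that span.
PTGER4, chr5:40679665-40679914, plus strand: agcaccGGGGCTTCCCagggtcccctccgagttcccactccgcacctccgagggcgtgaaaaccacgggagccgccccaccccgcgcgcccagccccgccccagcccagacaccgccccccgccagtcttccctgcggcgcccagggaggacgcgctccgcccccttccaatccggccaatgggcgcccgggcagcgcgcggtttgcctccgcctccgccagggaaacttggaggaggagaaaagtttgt
PTGFR, chr1:78490724-78490973, plus strand: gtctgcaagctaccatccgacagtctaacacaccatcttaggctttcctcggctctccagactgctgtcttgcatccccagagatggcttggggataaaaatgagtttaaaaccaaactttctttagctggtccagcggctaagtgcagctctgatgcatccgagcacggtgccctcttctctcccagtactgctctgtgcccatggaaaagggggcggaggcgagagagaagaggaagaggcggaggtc
PTGS1, chr9:122370283-122370532, plus strand: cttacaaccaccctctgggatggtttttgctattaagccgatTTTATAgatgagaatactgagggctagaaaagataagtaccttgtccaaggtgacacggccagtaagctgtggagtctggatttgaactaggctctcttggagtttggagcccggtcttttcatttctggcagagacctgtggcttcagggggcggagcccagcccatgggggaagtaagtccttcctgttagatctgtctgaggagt
PTGS1, chr9:122375052-122375301, plus strand: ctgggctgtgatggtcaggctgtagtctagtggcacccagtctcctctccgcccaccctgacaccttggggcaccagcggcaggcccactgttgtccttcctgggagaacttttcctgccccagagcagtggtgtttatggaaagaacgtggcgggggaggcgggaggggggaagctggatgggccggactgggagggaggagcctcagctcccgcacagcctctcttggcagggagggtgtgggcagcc
PTGS2, chr1:186680424-186680673, minus strand: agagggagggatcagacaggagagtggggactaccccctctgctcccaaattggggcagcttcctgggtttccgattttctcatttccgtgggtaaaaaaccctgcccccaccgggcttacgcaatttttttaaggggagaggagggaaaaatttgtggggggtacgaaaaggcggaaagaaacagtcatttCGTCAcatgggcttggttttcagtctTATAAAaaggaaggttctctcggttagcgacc
PTGES, chr9:129753043-129753292, minus strand: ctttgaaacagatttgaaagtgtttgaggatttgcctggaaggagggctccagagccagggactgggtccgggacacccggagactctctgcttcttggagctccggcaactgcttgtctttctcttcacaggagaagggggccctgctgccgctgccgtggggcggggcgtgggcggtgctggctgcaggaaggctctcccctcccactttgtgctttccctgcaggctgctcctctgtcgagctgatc

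The PTGS2 sequence held a cyclic AMP half-site from 58 to 54 bases before the start and a TATA box from 32 to 27 bases before it. The first start of PTGS1 had a TATA box match on the opposite strand from 208 to 203 bases before it. The PTGER4 sequence held an NF-kB match from 244 to 235 bases before the start and had a GC content of 72.8%, against 50.4% for PTGS2. No letters of the 5 motifs were found in the windows of PTGFR, PTGES and the second start of PTGS1. Over the windows of all 35116 listed starts, 11.9% held the TEAD core, 6.57% the AP-1 motif, 21.2% the cyclic AMP half-site, 10.7% the TATA box and 9.96% the NF-kB consensus. Neither the TEAD core nor the AP-1 motif was present in any of the windows printed. Such matches describe letters and not occupied sites. A site whose letters depart from the motif searched stays unmarked, so an unmarked window does not show that a site is absent.

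The libraries held between 20050889 and 23978423 counts, and genes with few counts carry a larger counting error beside the spread between replicates. MAML2, the targeted gene, fell from 1436 and 1402 counts under shCtl to 634 and 553 under shM2-3, or 36.2% of the control level in RPKM. Counts per gene do not show how far the fusion and MAML2 each fell. YAP1, whose first exons the fusion holds, had 81.8 and 83.0 RPKM in shCtl and 106 and 105 RPKM in shM2-3 (log2 fold change 0.42, not called). RPKM (reads scaled to transcript length and to the number of mapped reads) is used for levels, since it allows genes of different lengths to be compared. Of the epithelial and ovarian markers reported, the keratins KRT8 and KRT18 were abundant, while PAX8, NAPSA, EPCAM and WT1 had an RPKM of 0.389 or less in every library. KRT8 was itself lower in shM2-3, with 29.1 and 29.7 RPKM against 73.3 and 70.5. Of 6 leukocyte markers found, PTPRC and CD3E had 3 counts or fewer in every library, whereas CSF1R had 2 and 8 counts under shCtl and 230 and 223 under shM2-3, and CD14 had 3 and 4 against 42 and 37. The part of these markers in the prostaglandin gene values was not tested.

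Of the 8 prostaglandin genes tested, 3 were called lower in shM2-3 (PTGER4, PTGFR and PTGS1) and 2 were called higher (PTGES and PTGS2). A gene was called when its adjusted p was 0.05 or less in edgeR's quasi-likelihood test over all genes and its fold change was 2 or more. By the same limits 8.93% of all genes tested were called lower and 9.24% were called higher. Because the genes were picked with this contrast in view, nothing is read from the comparison of these counts. PTGER4 passed the filter only through the shCtl libraries and PTGS2 only through the shM2-3 libraries. At its shCtl level PTGS2 was under the filter, so it had to be higher in shM2-3 to be tested. PTGER4 would have been tested at its shCtl level without a change, but the set was chosen for its fall.

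**Figure D1:**
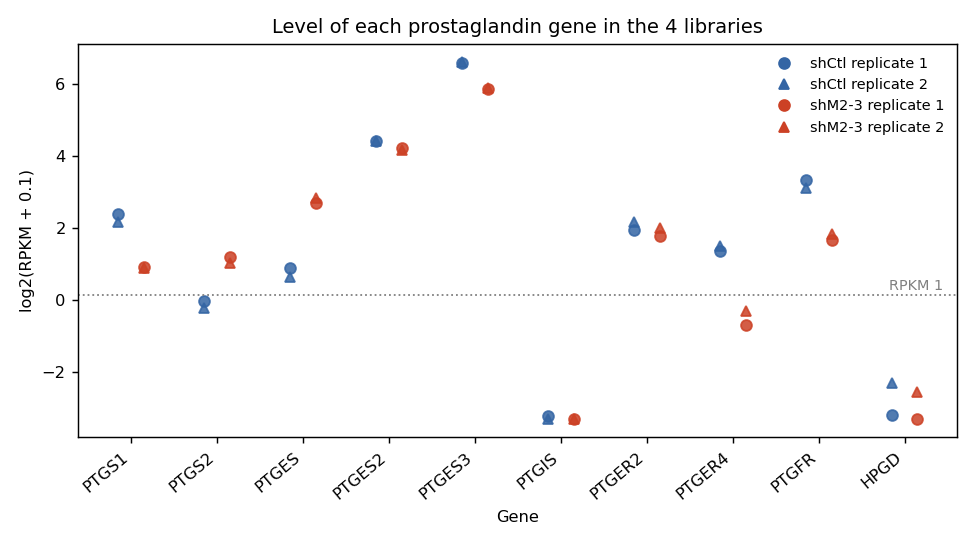
Level of each of the 10 prostaglandin genes as log2(RPKM + 0.1), with 1 point per library; circles are replicate 1 and triangles are replicate 2 of shCtl (blue) and shM2-3 (red). PTGER4, PTGFR and PTGS1 lie lower and PTGES and PTGS2 lie higher in both shM2-3 libraries, whereas PTGER2 overlaps and PTGIS and HPGD lie far under an RPKM of 1 (dotted line).

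The cyclooxygenases catalyze the committed step of prostaglandin synthesis. PTGS1, on chromosome 9 from 122370530 to 122395703, went from 686 and 597 counts under shCtl to 292 and 258 under shM2-3. These correspond to 5.14 and 4.40 RPKM in shCtl and 1.79 and 1.75 RPKM in shM2-3. PTGS1 was thus lower in both knockdown libraries, by 2.58-fold (log2 fold change -1.37, standard error (SE) 0.107). PTGS2, on chromosome 1 from 186671791 to 186680922, moved the other way, from 93 and 80 counts to 282 and 225. Its level was 0.880 and 0.745 RPKM in shCtl and 2.18 and 1.92 RPKM in shM2-3, a log2 fold change of 1.40 (SE 0.177).
By RPKM the pair changed places in the order of levels. In shM2-3 the counts of PTGS2 were still under those of PTGS1 in both libraries, so the order there rests on the scaling to transcript length. In shCtl, PTGS2 reached 0.171 and 0.169 of the PTGS1 level per library, and in shM2-3 the ratio was 1.22 and 1.10. The summed level of both cyclooxygenases was 6.02 and 5.15 RPKM in shCtl and 3.97 and 3.67 RPKM in shM2-3, so the sum was lower in the knockdown even though PTGS2 was higher. An exon of PTGS2 overlaps the antisense RNA PACERR, whose reads cannot be told apart in unstranded libraries. PACERR itself was listed with 4 and 0 counts under shCtl and with 2 and 1 under shM2-3.

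The PGE2 synthases act on the PGH2 that cyclooxygenases supply. PTGES, the inducible microsomal enzyme that usually acts together with PTGS2, lies on chromosome 9 from 129738331 to 129753042. PTGES went from 72 and 60 counts to 320 and 318. Its level went from 1.76 and 1.44 RPKM to 6.37 and 7.0 RPKM, a 4.38-fold difference (log2 fold change 2.13, SE 0.176), which was the largest increase among the prostaglandin genes and ranked 279 from the top of all genes tested. PTGES thereby moved from above 14.3% and 11.2% of all genes tested to above 46.3% and 49.9%.
The other synthases did not pass the fold change limit. PTGES2, a membrane-associated enzyme, was at 21.3 and 21.0 RPKM in shCtl and at 18.3 and 17.7 RPKM in shM2-3, a log2 fold change of -0.17 (SE 0.0657). PTGES3, which is also known as the HSP90 cochaperone p23, was the most abundant of the 10 genes, with 95.5 and 97.3 RPKM in shCtl and 57.8 and 59.0 RPKM in shM2-3. For PTGES3 the log2 fold change was -0.66 (SE 0.0406), short of the limit. GENCODE annotates 5 PTGES3 pseudogenes, of which the tables list 0, so PTGES3 counts are uncertain where reads could match a copy. The same holds for PTGER4, for which 2 pseudogenes are annotated and 0 listed.
By level, PTGES took 1.48% and 1.20% of the summed RPKM of the 3 synthases in shCtl and 7.73% and 8.36% in shM2-3. The share of PTGES3 was 80.5% and 81.3% in shCtl and 70.1% and 70.5% in shM2-3. The inducible enzyme therefore remained the least abundant of the 3 in every library, at 0.348 and 0.395 of the PTGES2 level in shM2-3 against 0.0823 and 0.0685 in shCtl.

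PTGIS, which makes prostacyclin, was listed with 1 and 0 counts under shCtl and with 0 in both shM2-3 libraries. A count of 0 allows up to 3 counts in a library, and no difference in PTGIS was detectable at this depth. HPGD, which oxidizes PGE2 to an inactive ketone, was listed with 1 and 11 counts under shCtl and with 0 and 8 under shM2-3. The spread of HPGD within each group was wider than the difference between the groups, and neither gene was tested.

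The receptors determine which prostaglandins a cell can sense. PTGER4 encodes EP4, a PGE2 receptor that couples to Gs, and lies on chromosome 5 from 40679915 to 40693735. It went from 197 and 220 counts under shCtl to 51 and 63 under shM2-3. Its level was 2.45 and 2.69 RPKM in shCtl and 0.519 and 0.708 RPKM in shM2-3, or 2.57 ± 0.170 against 0.613 ± 0.134 (SD, n = 2 each). The difference was 4.01-fold (log2 fold change -2.01, SE 0.212) and ranked 254 from the bottom of 12157 genes. In shCtl the PTGER4 level exceeded that of 21.0% and 22.8% of all genes tested, and in shM2-3 that of 1.99% and 3.50%.
PTGFR encodes FP, the receptor for PGF2α, which couples to Gq, and lies on chromosome 1 from 78303884 to 78540701. PTGFR went from 1269 and 1104 counts to 481 and 489. Its level of 9.85 and 8.42 RPKM in shCtl made it the most abundant of the 3 receptors there, and it was 3.05 and 3.43 RPKM in shM2-3, a log2 fold change of -1.43 (SE 0.0935).
PTGER2 encodes EP2, the other Gs-coupled PGE2 receptor of the set. PTGER2 gave 213 and 257 counts under shCtl and 234 and 245 under shM2-3, so that the groups overlapped in counts. The RPKM values overlapped as well, at 3.70 and 4.39 under shCtl and at 3.33 and 3.85 under shM2-3, and the log2 fold change was -0.11 (SE 0.147). Leaving out shCtl replicate 2 turned its sign, to 0.0148.

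**Figure D2:**
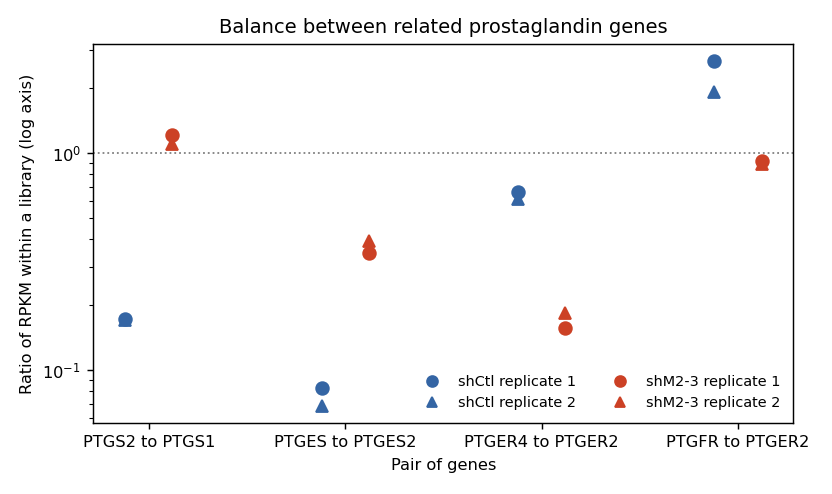
Ratio of the RPKM of related prostaglandin genes within each library, on a log axis; circles are replicate 1 and triangles are replicate 2 of shCtl (blue) and shM2-3 (red). PTGS2 lies under PTGS1 in shCtl (0.171 and 0.169) and over it in shM2-3 (1.22 and 1.10), and PTGER4 drops from 0.662 and 0.613 to 0.156 and 0.184 of PTGER2.

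The balance between the receptors differed accordingly. PTGER4 was at 0.662 and 0.613 of the PTGER2 level in shCtl and at 0.156 and 0.184 in shM2-3. PTGFR was 2.66 and 1.92 times the PTGER2 level in shCtl and 0.918 and 0.890 times in shM2-3, where their RPKM ranges overlapped and PTGFR and PTGER2 could not be ordered beyond their spread. The order from high to low in both shCtl libraries was PTGES3, PTGES2, PTGFR, then PTGS1 and PTGER2, which were all but level in replicate 2 (4.40 and 4.39 RPKM), followed by PTGER4, PTGES and PTGS2. In both shM2-3 libraries it was PTGES3, PTGES2 and PTGES, then PTGER2 and PTGFR, then PTGS2 and PTGS1, with PTGER4 lowest of the 8. As these are bulk samples, fewer cells that carry a transcript and less of it per cell cannot be told apart.

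**Figure D3:**
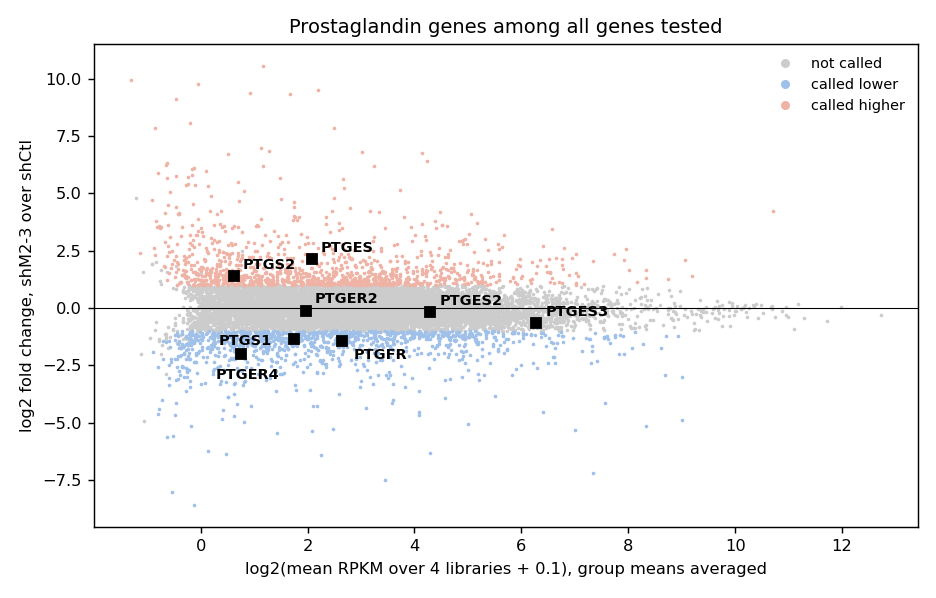
Log2 fold change of each of the 12157 genes tested against its level, log2(mean RPKM + 0.1); gray points were not called, blue points were called lower and red points called higher, and black squares are the prostaglandin genes. PTGES, PTGS2, PTGER4, PTGFR and PTGS1 lie among the called genes, and PTGER2, PTGES2 and PTGES3 among those not called.

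To place these genes in their pathway, 31 further prostanoid gene symbols were read from the same test. Of these, 25 were found and 17 tested, of which 3 were called lower (MGLL, PTGR1 and PTGR2) and 2 called higher (PTGFRN and TBXAS1). Over all genes tested, 8.93% were called lower and 9.24% higher. The median log2 fold change of the list was -0.05 against -0.0037 over all genes tested. Upstream of the cyclooxygenases, MGLL, a lipase whose hydrolysis of 2-arachidonoylglycerol releases arachidonic acid, fell from 26.5 RPKM in both shCtl libraries to 6.37 and 6.33 RPKM. Its log2 fold change was -1.99 (SE 0.0522, adjusted p = 7.01e-13). PLA2G4A, the cytosolic phospholipase that releases arachidonic acid from membranes, was not called, at a log2 fold change of -0.31 (SE 0.132). TBXAS1, the thromboxane synthase, rose from 12 and 42 counts to 142 and 99 (log2 fold change 2.01, SE 0.400, adjusted p = 0.000496). TBXAS1 passed the filter only through shM2-3 replicate 1, so it had to be higher there to be tested.
Around the receptors and the products, PTGFRN, a membrane protein known to bind the FP receptor and reduce its binding of PGF2α, rose from 20.5 and 20.3 RPKM to 50.7 and 48.7 RPKM (log2 fold change 1.35, adjusted p = 4.59e-12). PTGFRN was 2.09 and 2.41 times the PTGFR level in shCtl and 16.6 and 14.2 times in shM2-3. The reductases PTGR1 and PTGR2, which act on 15-keto prostaglandins downstream of HPGD, fell by 1.13 and 1.11 on the log2 scale, with adjusted p = 6.48e-09 and adjusted p = 3.77e-08. PTGR1 had 27.3 and 26.0 RPKM in shCtl and 11.5 and 11.7 in shM2-3. ZADH2, listed with them among the genes of transport and inactivation, went the other way. It had 674 and 662 counts under shCtl and 1187 and 977 under shM2-3 (log2 fold change 0.55, not called). Among the other synthases AKR1B1 and AKR1C3, which can form PGF2α, had log2 fold changes of -0.05 and 0.17 and were not called. The 8 genes under the filter, which include the remaining PGE2 receptors PTGER1 and PTGER3 and the prostacyclin receptor PTGIR, had an RPKM of 0.816 or less in every library. PTGIR had 19 and 13 counts under shCtl and 0 and 1 under shM2-3, and the phospholipase PLA2G4C had 0 and 7 against 32 and 34. With no RPKM filter, PTGIR was called lower and PLA2G4C higher.

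**Figure D4:**
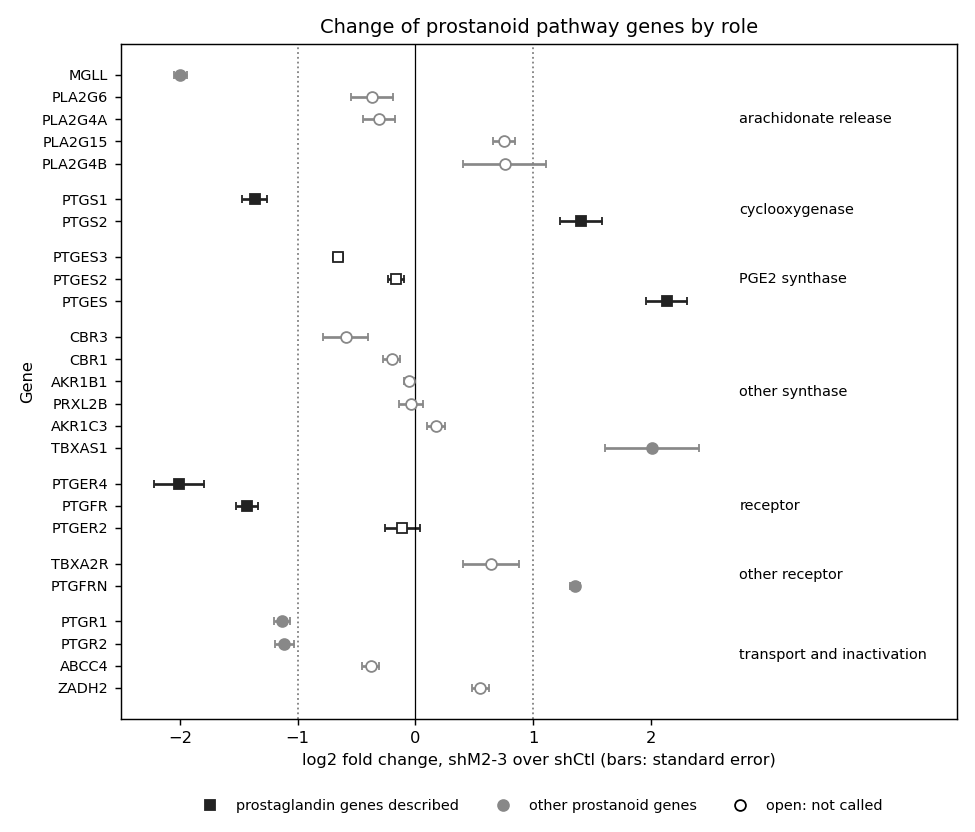
Log2 fold change (shM2-3 over shCtl, bars are standard errors from the test across all genes) of the 8 tested prostaglandin genes (black squares) and 17 other prostanoid genes (gray circles), grouped by role; filled symbols were called and the dotted lines mark a fold change of 2. PTGES, TBXAS1, PTGS2 and PTGFRN lie past the upper line and PTGER4, MGLL, PTGFR, PTGS1, PTGR1 and PTGR2 past the lower one.

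Arachidonic acid itself is supplied by desaturases, elongases and acyltransferases. Of 10 such genes, all tested, 1 was called lower and none higher, where 8.93% and 9.24% of all genes tested were called. The gene called lower was ELOVL2, an elongase of polyunsaturated fatty acids, with a log2 fold change of -1.37 (SE 0.137, adjusted p = 8.23e-07). Without the fold change limit, 6 of the 10 were lower and 0 higher at an adjusted p of 0.05 or less, where 36.4% of all genes tested were lower and 36.3% were higher. The median log2 fold change of the list was -0.50, and the highest value was that of LPCAT3 at 0.15.

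PTGS2 and PTGES are known to be induced by interleukin-1 and other cytokines, so 15 genes of cytokines, their receptors and transcription factors that act on PTGS2 were read, of which 13 were tested. IL1B, IL1A and NFATC2 were called higher and JUN was called lower, against 9.24% of all genes tested called higher and 8.93% called lower. IL1A and NFATC2 passed the filter only through the shM2-3 libraries, so they had to be higher there to be tested. Without the fold change limit 6 of the 13 were lower and 7 higher, where the shares of all genes were 36.4% and 36.3%, and the median log2 fold change was 0.21. IL1B rose from 240 and 242 counts to 2107 and 1972, a log2 fold change of 2.94 (SE 0.0749, adjusted p = 5.39e-13). JUN, a subunit of AP-1, fell from 148 and 158 RPKM to 42.9 and 44.5 RPKM (log2 fold change -1.74, adjusted p = 6.69e-13). Whether these differences bear on PTGS2 or PTGES was not tested.
Of 25 inflammatory mediators, 14 were tested, of which 7 were called higher and 2 lower, where 9.24% and 8.93% of all genes tested were called. CSF2, CSF3 and C3 passed the filter only through the shM2-3 libraries, so they had to be higher there to be tested. Without the fold change limit 7 were higher and 6 lower (36.3% and 36.4% of all genes). Of the 14 log2 fold changes, 7 were negative and 7 positive. The list's median of 0.59 on the log2 scale lies in the gap between CXCL1 (-0.17) and IL11 (1.34), so it shows no common rise. The highest was CSF3, a granulocyte growth factor, which was listed at 0 in both control libraries and reached 205 and 190 counts under shM2-3; set against 3 counts per library, this is at least 58.2-fold higher. The lowest was CXCL5, with a log2 fold change of -1.19. PTGER4, which is not in this list, lay below all 14. The set was picked for the fall of PTGER4 against a presumed inflammatory trend, so this place restates the choice and is no result.

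Downstream of EP2 and EP4, 31 genes of Gs proteins, adenylyl cyclases, protein kinase A, phosphodiesterases and cyclic AMP-responsive factors were read and 23 tested. NR4A1 was called lower and PDE4D and NR4A2 were called higher, beside 8.93% and 9.24% of all genes tested. NR4A2 passed the filter only through the shM2-3 libraries, so it had to be higher there to be tested. At an adjusted p of 0.05 or less without a fold change limit, 6 were lower and 14 higher, beside 36.4% and 36.3% of all genes tested, and the median log2 fold change was 0.25. NR4A1 and NR4A2 encode related nuclear receptors that are both known as immediate cyclic AMP targets, and they had opposite log2 fold changes of -1.39 (SE 0.189, adjusted p = 1.65e-05) and 1.40 (SE 0.242, adjusted p = 0.000147). PDE4D, which degrades cyclic AMP, went from 478 and 470 counts to 1192 and 1088.

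Profiles like those of PTGER4 and PTGES were sought by the Euclidean distance of log2(RPKM + 0.1), centered on the shCtl mean, over the 4 libraries. The nearest to PTGER4 were PDGFB, LINC-PINT, FMN2, RNF144B and LOC101927657, at distances from 0.114 to 0.172. PDGFB, a growth factor, went from a mean of 1.89 RPKM to 0.420 RPKM. The nearest to PTGES, the gene with the largest log2 fold change after PTGER4 was set aside, were CXXC4, CDKN1A, LPCAT2, ATP7A and TRANK1, at distances from 0.0896 to 0.176. CDKN1A, a cyclin-dependent kinase inhibitor, went from a mean of 2.27 RPKM to 9.37 RPKM. With 4 libraries in 2 groups, this likeness rests mostly on the size of the change.

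The direction of each called prostaglandin gene was kept under every other setting tried. PTGER4 ranged from -2.24 to -1.15, PTGFR from -1.54 to -1.26, PTGS1 from -1.48 to -1.06, PTGES from 1.57 to 2.28 and PTGS2 from 0.75 to 1.53 on the log2 scale. The value of PTGS2 nearest to 0 came from log2(RPKM + 1), a scale that understates changes of low genes, and there it did not reach the fold change limit.

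**Figure D5:**
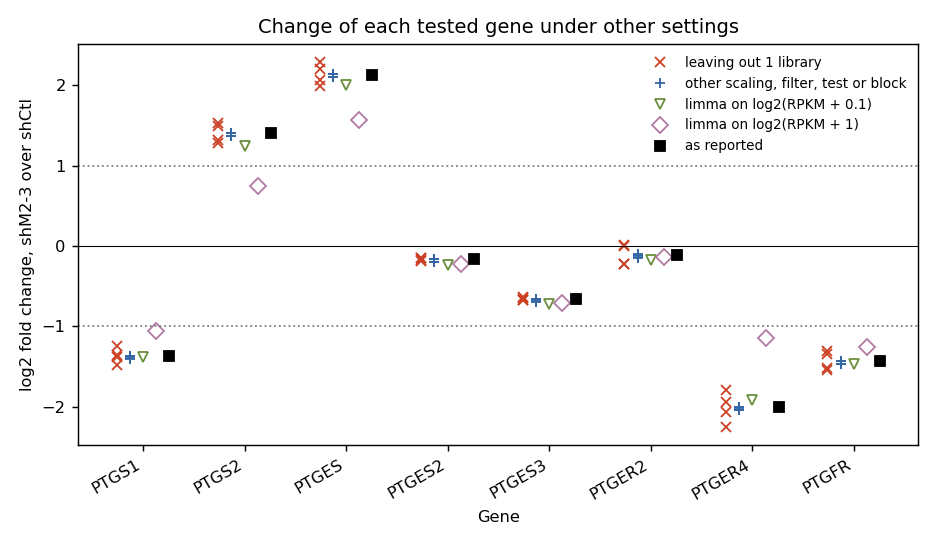
Log2 fold change of each tested prostaglandin gene as reported (black squares) and under other settings; crosses leave out 1 library, plus signs change the scaling, filter, test or block, and open triangles and diamonds are limma on log2(RPKM + 0.1) and log2(RPKM + 1). PTGER4, PTGFR and PTGS1 stay under the lower dotted line (a fold change of 2) and PTGES stays over the upper one, while PTGS2 drops to 0.75 on log2(RPKM + 1).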

How the data were processed

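RNA of human ES-2 cells, 2 libraries per group, was sequenced by the study as paired ends of 150 bases without strand. The authors mapped reads to hg38 with HISAT2 2.0.4, discarded ambiguous and poorly mapped reads, and quantified RefSeq transcripts in Partek 7.18. The deposited estimated counts per gene are not normalized, and between 42.4% and 48.6% of them are whole. The deposited RPKM values were scaled by the authors for transcript length and mapped reads.

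For testing, counts were set to the nearest whole number and fitted with edgeR 4.0.16 in R 4.3.3 (TMM factors, quasi-likelihood test, no block), over genes that exceeded an RPKM of 1 in 1 or more libraries, the limit of the study's methods. P-values were adjusted by Benjamini-Hochberg over all 12157 genes, and the call limits were an adjusted p of 0.05 and a fold change of 2. Standard errors are the log2 fold change divided by the square root of F. The fit was checked on simulated data. Alternatives were DESeq2 1.42.0, limma 3.58.1 on log2(RPKM + 0.1) and log2(RPKM + 1), other scalings, filters and limits, a block on the replicate number, and leaving out 1 library at a time.

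The prostaglandin genes and all gene lists were chosen with earlier results of these data known. Named were the 10 genes, MAML2, YAP1, called genes of the prostanoid list, the lowest and highest of each other list and the 5 nearest profiles. PLA2G4A, AKR1B1, AKR1C3, ZADH2, the genes under the filter, PLA2G4B, CBR3, the lipoxygenases and PACERR were named after their values were seen. So were IL1A, NFATC2, CSF2, C3, CXCL1, IL11, PDE4D and single markers. Promoters are RefSeq's (GRCh38.p14) and gene positions are from GENCODE v44 on hg38. Within each group, replicates differed by 3.46 (shCtl) and 3.98 (shM2-3) times sampling noise, as chi-square per degree of freedom, so they were counted as separate libraries.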

Additional observations from a re-analysis of the deposited data

How the results depend on the processing

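With 2 libraries per group, standard errors lean on the spread shared by all genes, and PTGS2, PTGES and PTGER4 rest on low counts per library. The 3 prostaglandin genes called lower were called under all 13 alternatives, where the count was 3 or 4, the fourth being PTGES3 at a fold change limit of 1.5. That limit was applied to the fit as reported, so it could lose no call made at a limit of 2. The 2 called higher were called except on log2(RPKM + 1), where 1 was called and PTGS2 was lost. PTGER2 ranged from -0.225 to 0.0148 on leaving out 1 library, with the positive value without shCtl replicate 2. Over all genes, 1086 were called lower and 1123 higher as reported, 2302 and 2296 at a limit of 1.5, and 723 and 596 on log2(RPKM + 1), which shrinks changes of low genes. Of the other prostanoid genes, the count called higher was 2 as reported, 1 with an RPKM above 1 required in at least 2 libraries (TBXAS1 lost), 1 on log2(RPKM + 1), 3 with no RPKM filter, and 4 at a limit of 1.5; leaving out 1 library gave 2 to 3, with PLA2G4B added without shCtl replicate 1. The count called lower was 3, with 2 on log2(RPKM + 1) (PTGR2 lost) and 4 with no RPKM filter (PTGIR added) or a limit of 1.5 (CBR3 added). The replicate numbers do not pair the libraries by any label, and deviations of same-numbered libraries had a correlation of -0.0287 across genes; with a replicate block 1079 genes were called lower and 1123 higher, and no call of a prostaglandin gene changed.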

Other observations

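The other branch of arachidonic acid metabolism leads through lipoxygenases to leukotrienes. Of 19 listed genes, 15 were found and 7 were tested. The lipoxygenases found, ALOX12, ALOX15, ALOX15B and ALOXE3, had an RPKM of 0.456 or less in every library, whereas LTA4H, the hydrolase that forms leukotriene B4, had 64.0 and 62.3 RPKM in shCtl and 51.1 and 50.2 RPKM in shM2-3. All 7 had a negative log2 fold change, and none was called lower or higher, where 8.93% and 9.24% of all genes tested were called. In edgeR's quasi-likelihood test without a fold change limit, 6 were lower at an adjusted p of 0.05 or less. Of all genes tested 36.4% were lower by that limit, and the median of the list was -0.40. The lowest value was that of LTB4R, a receptor for leukotriene B4, at -0.77 (from 378 and 398 counts to 280 and 224). The highest was that of LTA4H, at -0.25.

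Among the markers of other cell types, CSF1R, a receptor of macrophages, was called higher (log2 fold change 5.33), and it passed the filter only through the shM2-3 libraries. CD14, a marker of monocytes that was under the filter, went from 0.0777 and 0.102 RPKM to 0.890 and 0.866 RPKM, while PTPRC had 3 and 0 counts against 2 and 2. The summed RPKM of the 6 leukocyte markers found was 58.3 and 57.5 in shCtl and 43.0 and 42.0 in shM2-3, most of it CD68. The 7 fibroblast markers summed to 33.9 and 33.8 RPKM in shCtl and to 95.1 and 94.4 in shM2-3. Nearly all of that came from COL6A3 and PDGFRA, both called higher, whereas DCN, LUM, COL1A2, COL3A1 and POSTN had an RPKM of 0.413 or less in every library. LYZ differed within shM2-3, with 100 and 5 counts. The part of these differences in the prostaglandin genes was not tested.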
